A study of Mus musculus with 24 samples.

Results

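The interferon-induced genes and chemokines described here are Ifit1, Ifit3, Isg15, Irf7, Gbp2, Gbp3, Irf1, Cxcl9 and Cxcl10, measured in mouse cortical tumours on Affymetrix arrays. The 9 genes were listed by name, and a probe set was taken for a gene only where the platform's annotation gives that probe set a single symbol. On this rule 8 of the 9 had a value, out of 17097 genes on the array with such a probe set, and all 8 passed a filter on low values that kept 13218 genes. No probe set carried the symbol Isg15 alone, so Isg15 is named but not measured. For each gene the probe set with the highest mean over the arrays was used. Gbp2 alone had another probe set, which is given beside it.

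The study profiled 24 tumours excised from mouse cortex, with a separate single-colour array for each. Per the labels, the tumours arose from cells that expressed RAB3A (6 tumours), BC74C (9) or ZNF668 (9), called the class gene here. Host strain, age and delivery of the class gene are not given in the sources used here, all tumours carry a class gene, and normal cortex was not analysed here. A second label calls 11 tumours ependymoma, 4 HGG, 5 TUMOR and 4 UNKNOWN. The RAB3A tumours comprised 2 labelled ependymoma, 2 TUMOR and 2 UNKNOWN, the BC74C tumours 6 ependymoma, 2 HGG and 1 UNKNOWN, and the ZNF668 tumours 3 ependymoma, 2 HGG, 3 TUMOR and 1 UNKNOWN. Tumours are named by class gene and a number in order of deposit. The sample titles carry the prefix elw (18 tumours) or mmr (6, of which 2 RAB3A, 1 BC74C and 3 ZNF668), a division that the labels leave unexplained and that may mark a batch. Whether the tumours came from separate animals is not stated in the labels, so p-values measure the spread between these samples, and the number of arrays limits the precision.

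Interferons reach their target genes by separate receptors. Type I interferons (alpha and beta) act through the receptor of Ifnar1 and Ifnar2 and induce genes that carry the interferon-stimulated response element (ISRE), while interferon gamma, made mainly by T and NK cells, acts through Ifngr1 and Ifngr2 and on genes that carry the gamma-activated site (GAS). Ifit1, Ifit3 and Isg15 are classical type I targets, Cxcl9 is induced chiefly by interferon gamma, and Gbp2, Gbp3, Irf1 and Cxcl10 respond to both, the guanylate-binding proteins most strongly to gamma.

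Promoter stretches are printed because the genes differ in which core they hold. They are from RefSeq windows on GRCm38.p6, 250 bases before to 50 after each annotated start, read 5′ to 3′ on the gene's strand. The ISRE core was searched as GAAANNGAAA and, on the other strand, TTTCNNTTTC. The following 5 stretches carry it in capitals.
Ifit1 promoter, chr19:34640765-34640833 (+): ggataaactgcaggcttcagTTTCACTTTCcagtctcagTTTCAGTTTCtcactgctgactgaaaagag
Ifit3 promoter, chr19:34583353-34583436 (+): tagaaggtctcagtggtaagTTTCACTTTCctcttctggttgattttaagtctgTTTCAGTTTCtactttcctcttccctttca
Gbp2 promoter, chr3:142620584-142620633 (+): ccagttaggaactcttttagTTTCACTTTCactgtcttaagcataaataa
Gbp3 promoter, chr3:142559979-142560034 (+): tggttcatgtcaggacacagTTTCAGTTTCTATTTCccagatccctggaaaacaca
Cxcl10 promoter, chr5:92349073-92349122 (-): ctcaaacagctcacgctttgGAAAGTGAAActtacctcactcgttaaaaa

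Ifit1 held 2 ISRE cores, whose first bases lay 104 and 85 bases before the start, and Ifit3 held 2, at 156 and 122 bases. Gbp2 held 1 at 59 bases and Cxcl10 held 1 at 213 bases. Gbp3 held 2 overlapping matches in 1 of its 2 windows, at 45 and 39 bases. The window of the unmeasured Isg15 held 3 overlapping matches. Among 32851 windows of the same length, 3.44% held the ISRE core. So the type I gene Ifit1 and the gamma-responsive genes Gbp2, Gbp3 and Cxcl10 have this core in common. A match is a description of letters, not a site of binding.

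The GAS core was searched as TTCNNNGAA, which reads the same on both strands, and was held by 8.3% of the windows. Irf1 held 1 match, in capitals, 90 bases before the start of 1 of its 2 windows. Neither core was found in the windows of Irf7 and Cxcl9. For Cxcl9 the 250 bases before the start are shown, with no capitals.
Irf1 promoter, chr11:53769904-53769952 (+): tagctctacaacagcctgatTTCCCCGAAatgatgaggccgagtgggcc
Cxcl9 promoter, chr5:92328080-92328329 (-): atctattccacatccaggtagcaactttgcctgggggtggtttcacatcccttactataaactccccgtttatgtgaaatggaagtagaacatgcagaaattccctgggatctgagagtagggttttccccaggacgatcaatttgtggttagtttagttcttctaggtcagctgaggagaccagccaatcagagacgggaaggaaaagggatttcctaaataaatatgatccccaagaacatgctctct

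Values are log2 expression values from the deposited table, where a step of 1 is a doubling. The array medians lay between 4.98 and 5.19. Some tumours stood apart in markers of other cell types. RAB3A 5 had a mean over 3 B cell markers of 10.33, against 3.35 to 4.09 in the other 23 tumours, with Ms4a1 at 12.13 and Cd79b at 11.54, where no other tumour exceeded 4.32 and 4.41. ZNF668 9 had the highest mean over 8 endothelial markers, 8.03, and over 5 oligodendrocyte markers, 11.22, and the lowest over 7 astrocyte markers, 8.67, where the next tumour had 9.74. RAB3A 5 also had the highest mean over 7 ependymal markers, 6.59, and was the highest tumour in 5 of them. Results that rest on these tumours are given with and without them. Mean levels over 15 microglia and macrophage markers ran from 7.76 to 10.11 and were alike across class genes: RAB3A tumours averaged 8.56 ± 0.85 (SD, n = 6), BC74C tumours 8.63 ± 0.55 (SD, n = 9) and ZNF668 tumours 8.50 ± 0.53 (SD, n = 9). Means of neuron markers lay further apart between class genes: over 10 of them RAB3A tumours averaged 8.98 ± 1.19 (SD, n = 6), BC74C tumours 8.39 ± 1.45 (SD, n = 9) and ZNF668 tumours 7.61 ± 1.30 (SD, n = 9). Over the ependymal markers the tumours labelled ependymoma averaged 5.01 ± 0.54 (SD, n = 11) and those labelled HGG 5.20 ± 0.62 (SD, n = 4), so these markers did not set the labels apart.

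Across class genes, the measured interferon-induced genes were lowest on average in RAB3A and highest in BC74C tumours, but none of the 8 passed the threshold in any comparison, and the class genes' ranges overlapped for every gene. The widest gaps were between RAB3A and BC74C tumours, in Cxcl10 at 3.14-fold, Gbp2 at 2.98-fold, Irf7 at 2.46-fold and Gbp3 at 2.45-fold lower in RAB3A. Single tumours spread more widely than the class genes did: Ifit1 ran from 5.92 to 11.37 over the 24 tumours and Cxcl10 from 5.32 to 11.87. The 3 class gene comparisons share samples, so their values are set side by side and not combined.

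**Figure D1:**
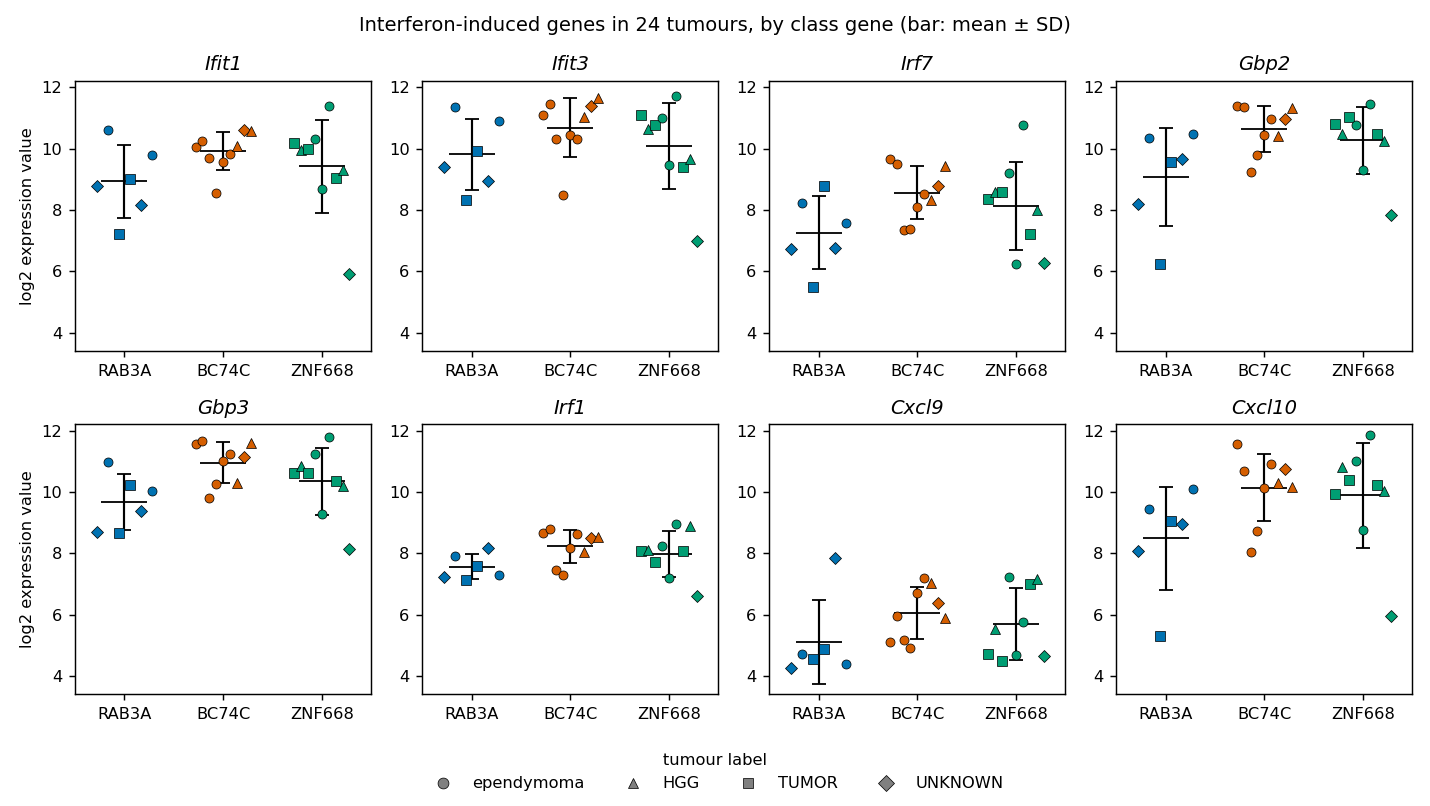
Log2 expression value (vertical axis) of 8 genes in each tumour, by class gene (horizontal axis); each point is a tumour, its shape the tumour label, and bars are the mean ± SD. Ranges overlap in every panel, and the highest Cxcl9 value, 7.86, is in a RAB3A tumour whose neighbours of that class lie at 4.26 to 4.89.

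Ifit1, on chr19:34640889-34650009, encodes a protein that binds viral RNA lacking the host's cap methylation. Ifit1 (probe set 1450783_PM_at) in RAB3A tumours was lowest at 7.21, with a median of 8.90 and a highest value of 10.59. In BC74C tumours the lowest, median and highest values were 8.55, 10.06 and 10.59, and in ZNF668 tumours 5.92, 9.96 and 11.37. The RAB3A values reached both the low and the high end of the BC74C range: 2 of 6 lay below every BC74C tumour and 1 lay just above all of them. The difference was -0.98 (SE 0.58, limma adjusted p = 0.664) for RAB3A minus BC74C, -0.49 (SE 0.58, limma adjusted p = 0.74) for RAB3A minus ZNF668 and 0.49 (SE 0.52, limma adjusted p = 0.969) for BC74C minus ZNF668.

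Ifit3, on chr19:34583119-34588982, is a partner of Ifit1 in the same gene cluster. Ifit3 (1449025_PM_at) had lowest, median and highest values of 8.32, 9.66 and 11.36 in RAB3A tumours, 8.47, 11.03 and 11.64 in BC74C tumours and 6.999, 10.62 and 11.72 in ZNF668 tumours. The low ends of RAB3A and BC74C tumours were alike, the lowest ZNF668 tumour lay further down, and 3 BC74C tumours lay above all RAB3A tumours. Its difference for RAB3A minus BC74C was -0.88 (SE 0.60, limma adjusted p = 0.713).

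Irf7, on chr7:141263183-141266499, encodes the factor that amplifies type I interferon production and is itself interferon-induced. Irf7 (1417244_PM_a_at) had lowest, median and highest values of 5.49, 7.16 and 8.78 in RAB3A tumours, 7.35, 8.50 and 9.66 in BC74C tumours and 6.24, 8.34 and 10.75 in ZNF668 tumours. The groups overlapped in part, with 3 of 6 RAB3A tumours below every BC74C tumour and 4 of 9 BC74C tumours above every RAB3A tumour. The difference was -1.30 (SE 0.59, limma adjusted p = 0.564) for RAB3A minus BC74C.

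Gbp2, on chr3:142620663-142638008, and Gbp3, on chr3:142560016-142573213, are neighbouring genes for guanylate-binding proteins, large GTPases that attack the vacuoles of intracellular pathogens. Gbp2 (1435906_PM_x_at, a suffix that marks probes which may bind related transcripts) had lowest, median and highest values of 6.23, 9.61 and 10.46 in RAB3A tumours, 9.22, 10.96 and 11.37 in BC74C tumours and 7.84, 10.49 and 11.45 in ZNF668 tumours. All 6 RAB3A tumours were below the BC74C median, and 5 of 9 BC74C tumours exceeded every RAB3A tumour. The difference was -1.58 (SE 0.56, limma adjusted p = 0.449) for RAB3A minus BC74C and -1.19 (SE 0.56, limma adjusted p = 0.536) for RAB3A minus ZNF668. The other Gbp2 probe set (1418240_PM_at) kept that order: RAB3A tumours averaged 8.70 ± 1.67 (SD, n = 6), BC74C tumours 10.28 ± 0.75 (SD, n = 9) and ZNF668 tumours 9.89 ± 1.05 (SD, n = 9).

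Gbp3 (1418392_PM_a_at) had lowest, median and highest values of 8.65, 9.72 and 10.98 in RAB3A tumours, 9.81, 11.15 and 11.68 in BC74C tumours and 8.15, 10.61 and 11.81 in ZNF668 tumours. Of the RAB3A tumours 3 lay below every BC74C tumour, and 6 BC74C tumours lay above every RAB3A tumour. Its difference of -1.29 (SE 0.45) for RAB3A minus BC74C had the smallest limma adjusted p of the 8 genes, 0.431.

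Irf1, on chr11:53770014-53778374, encodes the factor through which much of the gamma response is relayed. Irf1 (1448436_PM_a_at) spread least, from 7.13 to 8.16 in RAB3A tumours with a median of 7.45, from 7.31 to 8.78 in BC74C tumours with a median of 8.50 and from 6.61 to 8.95 in ZNF668 tumours with a median of 8.09. All RAB3A tumours were below the BC74C median and 6 BC74C tumours were above all RAB3A tumours. The difference for RAB3A minus BC74C was -0.67 (SE 0.31, limma adjusted p = 0.566).

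Cxcl9, on chr5:92321331-92328079, and Cxcl10, on chr5:92346638-92348889, encode chemokines that draw T and NK cells bearing the receptor Cxcr3. Cxcl9 (1418652_PM_at) in RAB3A tumours 1 to 6 was 4.26, 4.72, 4.57, 4.89, 7.86 and 4.39. Thus 5 RAB3A tumours were close together and below every BC74C tumour, while RAB3A 5, the tumour with B cell transcripts and the highest ependymal mean, was above every tumour of the series. In BC74C tumours the lowest, median and highest values were 4.93, 5.97 and 7.20, and in ZNF668 tumours 4.49, 5.55 and 7.24. The difference for RAB3A minus BC74C was -0.94 (SE 0.56, limma adjusted p = 0.662). Without RAB3A 5 the RAB3A mean fell from 5.11 ± 1.36 (SD, n = 6) to 4.56 ± 0.25 (SD, n = 5), against 6.05 ± 0.85 (SD, n = 9) in BC74C tumours, and the difference was -1.49 (limma adjusted p = 0.408). The part of the B cell and ependymal transcripts in this value was not tested.

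Cxcl10 (1418930_PM_at) in RAB3A tumours 1 to 6 was 8.08, 9.44, 5.32, 9.07, 8.94 and 10.09. In BC74C tumours its lowest, median and highest values were 8.04, 10.30 and 11.56, and in ZNF668 tumours 5.95, 10.22 and 11.87. RAB3A 3 and ZNF668 9 were far below the rest, and 7 of 9 BC74C tumours were above every RAB3A tumour. The difference for RAB3A minus BC74C was -1.65 (SE 0.74, limma adjusted p = 0.559).

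For RAB3A minus BC74C limma called 0 of 8 genes at an adjusted p under 0.05, where it called 0% of all 13218 genes. At an unadjusted p under 0.05, 5 of 8 were lower (Gbp2, Gbp3, Irf7, Irf1 and Cxcl10), against 6.01% of all genes lower and 8.21% in either direction. All 8 differences were negative with a median of -1.13, beside -0.04 over all genes. These genes vary together across tumours, as shown later, so the 8 are not separate observations. In bulk tumour RNA, fewer cells of a type and less RNA per cell cannot be told apart. The count rests on single tumours: it was 1 without RAB3A 3, 2 without RAB3A 1, BC74C 1, BC74C 2 or BC74C 8, and 3 without BC74C 6 or BC74C 9. For these fits the share of all genes was not counted. Blocking on the title prefix also gave 3, beside 8.96% of all genes. Within elw titles the count was 5, beside 8.78% of all genes, with a median difference of -1.19. The mmr titles held too few BC74C tumours for a value. Labels were unevenly spread over the class genes, with 2 TUMOR and 2 UNKNOWN among RAB3A and 1 UNKNOWN among BC74C tumours. Among tumours labelled ependymoma alone, 2 RAB3A against 6 BC74C, the median difference was -0.33. In these tumours Ifit1 and Ifit3 were higher in RAB3A, by 0.54 and 0.78.

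For RAB3A minus ZNF668 limma called 0 of 8 genes, beside 0.0757% of all genes. At an unadjusted p under 0.05 it had 1, Gbp2, which was lower, beside 6.34% of all genes lower and 9.21% in either direction. All 8 differences were negative, with a median of -0.63. The low tumour ZNF668 9 weighed on this comparison: without it the median was -0.94. In that fit 5 of 8 genes were under an unadjusted p of 0.05, but its share of all genes was not counted. Without RAB3A 5 as well the count was also 5, beside 14.4% of all genes. Within elw titles 4 genes were under it, beside 11.4% of all genes, with a median of -1.14. The count was 2 without RAB3A 5, beside 7.58% of all genes. It was also 2 without RAB3A 6, and 0 without RAB3A 1, RAB3A 3 or any 1 of ZNF668 1, 2, 3, 4, 6, 7 and 8. For these last fits the share of all genes was not counted. In the same comparison all 10 neuron markers were positive with a median of 1.41. Limma called 0 of them, and 3 were under an unadjusted p of 0.05: Neurod6 at 2.46 (limma adjusted p = 0.479), Tbr1 at 2.004 (limma adjusted p = 0.526) and Slc17a7 at 1.65 (limma adjusted p = 0.534). Neuron markers were also positive in 10 of 10 for BC74C minus ZNF668, with a median of 0.69. For RAB3A minus BC74C they were positive in 9 of 10, with a median of 0.65. The part of neuronal tissue in the RAB3A values was not tested. For BC74C minus ZNF668 limma called 0 of 8 genes, beside 0.303% of all genes, and 0 at an unadjusted p under 0.05, beside 6.88%. The 8 differences were positive, with a median of 0.41, but the median was -0.12 among elw titles and -0.18 among those labelled ependymoma.

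**Figure D2:**
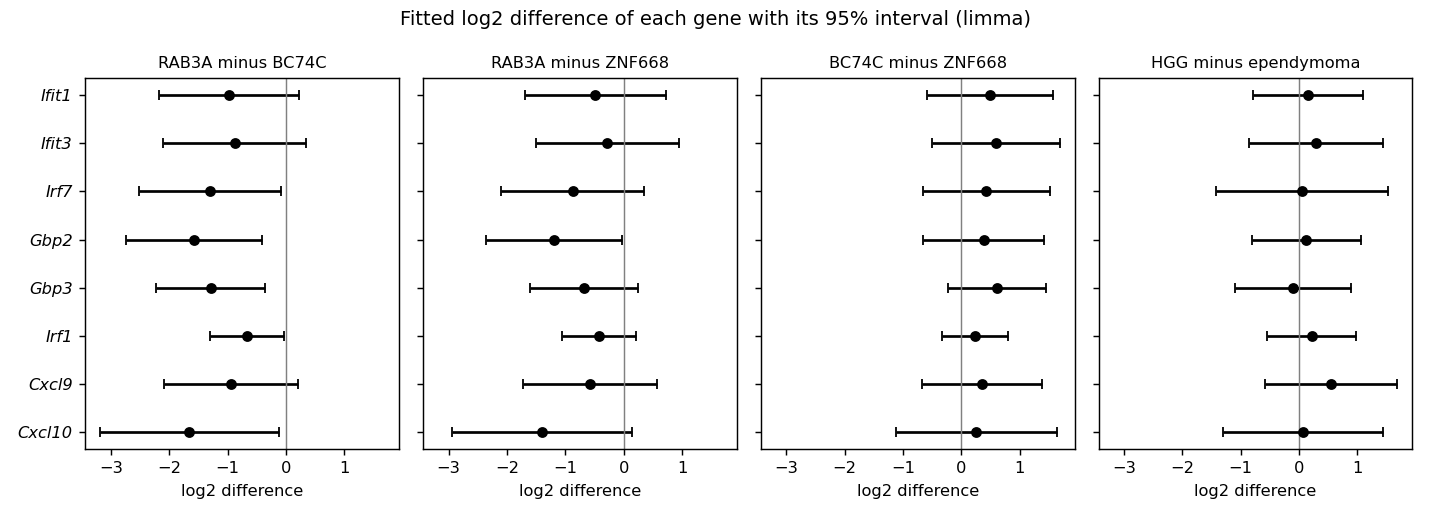
Fitted log2 difference (horizontal axis) of 8 genes in 4 comparisons, with 95% limma intervals. The intervals of Gbp2, Gbp3, Irf7, Irf1 and Cxcl10 exclude 0 before adjustment for RAB3A minus BC74C, and no HGG minus ependymoma interval does.

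Between HGG and ependymoma tumours the interferon-induced genes overlapped. HGG tumours had Ifit1 values of 9.96 in ZNF668 2, 10.09 in BC74C 7, 9.30 in ZNF668 8 and 10.56 in BC74C 9, inside the ependymoma range of 8.55 to 11.37 with its median of 9.81. For Cxcl9 the HGG values were 5.55, 7.05, 7.16 and 5.89 in the same order, and the ependymoma range was 4.39 to 7.24 with a median of 5.18. The groups overlapped for both genes. With the class gene as a covariate, limma called 0 of 8 genes for HGG minus ependymoma, beside 0% of all genes, and 0 at an unadjusted p under 0.05, beside 1.73%. Differences ran from -0.11 for Gbp3 to 0.55 for Cxcl9 (SE 0.53, limma adjusted p = 0.9998), whose 95% interval was -0.59 to 1.68. No HGG tumour had the class gene RAB3A. The labels TUMOR and UNKNOWN name no tumour type and were left out of this test. Means of Ifit1 and Cxcl10 were lower under these labels and their spread was wider. The means have no covariate and class genes were unevenly spread over the labels, so label and class gene cannot be told apart in them. Ifit1 averaged 9.98 ± 0.52 (SD, n = 4) under HGG, 9.88 ± 0.80 (SD, n = 11) under ependymoma, 9.09 ± 1.17 (SD, n = 5) under TUMOR and 8.37 ± 1.93 (SD, n = 4) under UNKNOWN. Cxcl10 averaged 10.33, 10.11, 8.98 and 8.43 in the same order. The lowest tumours of TUMOR and UNKNOWN for both genes were RAB3A 3 and ZNF668 9. Not every gene did so: Cxcl9 averaged 5.79 under UNKNOWN and 5.63 under ependymoma. The SD of Irf1 was 0.40 under TUMOR and 0.66 under ependymoma. Whether the label difference itself differed between BC74C and ZNF668 tumours was tested as an interaction, which limma called for 0 of 8 genes, beside 0% of all genes, with 0 at an unadjusted p under 0.05, beside 8.16%.

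Type I genes were then set against gamma-type genes. With Isg15 not measured, the type I side was Ifit1 alone, and for each tumour the mean of Gbp2 and Cxcl9 was subtracted from it. A difference of this quantity between groups is printed with no test. It was higher in RAB3A than in BC74C tumours by 0.28, with a pooled SD between tumours of 0.90, higher in RAB3A than in ZNF668 tumours by 0.40 (pooled SD 1.14) and higher in BC74C than in ZNF668 tumours by 0.12 (pooled SD 0.84). In HGG it differed from ependymoma by -0.35 (pooled SD 0.74), from plain label means without the class gene as a covariate, unlike the limma test. Each of these 4 was smaller than the spread between tumours. Single pairs of genes gave wider gaps between RAB3A and ZNF668 tumours: Ifit1 minus Gbp2 was higher in RAB3A by 0.70, close to its pooled SD of 0.72, and Ifit3 minus Gbp2 by 0.91, above its pooled SD of 0.72. Between RAB3A and BC74C tumours Ifit3 minus Gbp2 was higher in RAB3A by 0.70 (pooled SD 0.81). Other genes of the list were mixed. Cxcl10 lay further down than Ifit1 and Ifit3, as Gbp2 did, at -1.40 for RAB3A minus ZNF668 and -1.65 for RAB3A minus BC74C. Set against Ifit3 and Irf7, Gbp3 and Irf1 together showed no such gap. For RAB3A minus ZNF668, Ifit3 and Irf7 differed by -0.28 and -0.87, and Gbp3 and Irf1 by -0.68 and -0.43. For RAB3A minus BC74C the values were -0.88 and -1.30, against -1.29 and -0.67. In both, the ranges of these type I and gamma-type genes overlapped. Gbp2 and Cxcl9 did not act as a pair: for RAB3A minus BC74C the difference of Ifit1 minus Gbp2 was 0.60 and that of Ifit1 minus Cxcl9 was -0.04. For Ifit1 minus the mean of Gbp2 and Cxcl9, the 4 differences within elw titles were 0.80, 0.25, -0.55 and -0.11 in the order given first. Among ependymoma tumours alone the RAB3A minus BC74C value was 1.26. Without RAB3A 5 it was 0.76, and the RAB3A minus ZNF668 value was 0.89.

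Across tumours, Gbp2 followed Ifit1 and Cxcl9 did not. Over 24 tumours, Ifit1 and Ifit3 had a Pearson r of 0.967 (permutation p = 1e-05, the smallest that 100000 permutations can give) and a Spearman rho of 0.963. Ifit1 and Gbp2 had r = 0.836 (permutation p = 3e-05, adjusted 5.55e-05) and rho = 0.786. Without ZNF668 9 and RAB3A 3, the tumours farthest from the median of Ifit1, r was 0.742, and it was 0.872 within the elw and 0.986 within the mmr titles. Gbp2 and Cxcl10 had r = 0.952 (permutation p = 1e-05) and rho = 0.897.

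Cxcl9 and Ifit1 had r = 0.201 (permutation p = 0.355, adjusted 0.424) and rho = 0.243, with r = -0.032 without ZNF668 9 and RAB3A 3, 0.431 within elw and 0.149 within mmr. Cxcl9 and Gbp2 had r = 0.378 (permutation p = 0.0655, adjusted 0.0898) and rho = 0.318, with 0.257 without RAB3A 3 and ZNF668 9, 0.473 within elw and 0.256 within mmr. The closest partner of Cxcl9 among the 8 genes was Irf1, with r = 0.633 (permutation p = 0.0012, adjusted 0.00202) and rho = 0.709, with 0.597 without ZNF668 9 and RAB3A 3, 0.615 within elw and 0.747 within mmr. In all, 37 relations were computed, and p-values were adjusted over them by Benjamini-Hochberg. The 21 pairs without Cxcl9 had r from 0.68 to 0.967 with a median of 0.836, and the 7 pairs with Cxcl9 from 0.141 to 0.633 with a median of 0.34. After centring each class gene on its mean, the medians were 0.815 and 0.213. Without RAB3A 5 they were 0.844 and 0.452. Irf7, whose promoter window like that of Cxcl9 held neither core, had r = 0.832 with Ifit1. A relation between promoter cores and these correlations was not tested.

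**Figure D3:**
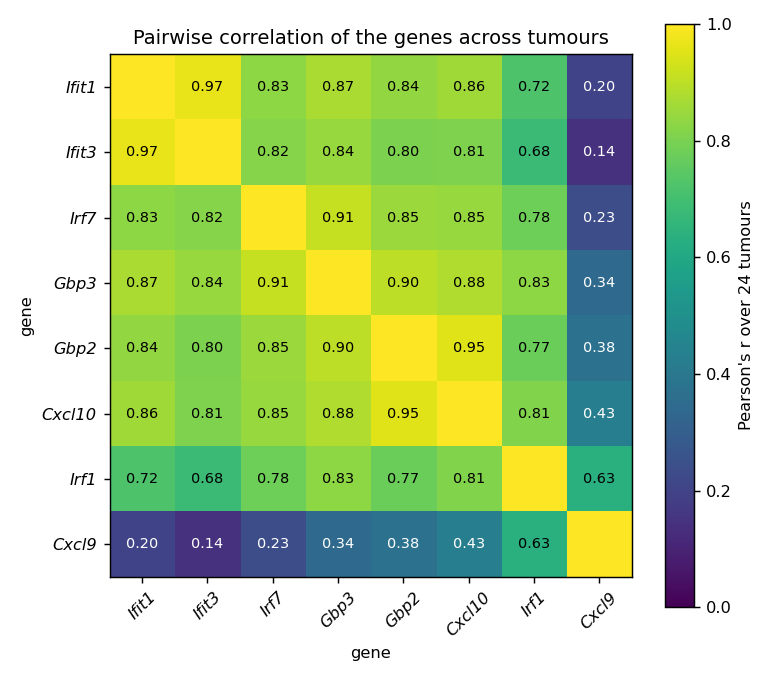
Pearson's r over 24 tumours for each pair of 8 genes (both axes list genes, colour and number give r). Ifit1, Ifit3, Irf7, Gbp3, Gbp2, Cxcl10 and Irf1 have r of 0.68 to 0.97 with each other, and Cxcl9 has 0.14 to 0.63 with them.

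The genes most like each of these 3 over the tumours, among the other 13217 tested, are given by r with no p, since the arrays are shared. For Ifit1 they were Ifit3 (0.97), Rtp4 (0.96), Usp18 (0.96), Oasl2 (0.95) and Tlr3 (0.94). For Gbp2 they were Ifih1 (0.96), Cxcl10 (0.95), Ifi35 (0.92), Iigp1 (0.91) and Oasl1 (0.91). For Cxcl9 they were Fancb (0.79), Gbp8 (0.76), Mcm5 (0.73), Plac8 (0.73) and Btaf1 (0.72). An r over 0.7 was reached by 151 genes with Ifit1, 187 with Gbp2 and 9 with Cxcl9. Cxcl9 thus had few close partners on these arrays.

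The level of Cxcl9 was also set beside cell markers. With the mean of 14 T and NK cell markers, Cxcl9 had r = 0.548 (permutation p = 0.00178, adjusted 0.00286) and rho = 0.621. Without RAB3A 5 and ZNF668 4, the tumours farthest from the median of Cxcl9, r was 0.375. It was 0.468 within elw, 0.649 within mmr, and within class genes 0.974 in RAB3A, 0.057 in BC74C and 0.475 in ZNF668 tumours. The relation thus rested in part on those tumours, and RAB3A 5 had a T and NK cell mean of 4.86, against 3.63 to 4.12 in the others. Of the 14 markers, 4 were highest in that tumour: Cd2 at 8.82, Cd8b1 at 7.01, Cd3e at 4.82 (highest elsewhere 4.60) and Gzmb at 4.93 (highest elsewhere 4.13). Cd3d at 4.36 and Cd3g at 4.62 were below the highest values elsewhere. Of the 14 markers, 6 lay below the filter on low values. With the same mean, Ifit1 had r = 0.043 (permutation p = 0.829, adjusted 0.829) and Gbp2 r = 0.124 (permutation p = 0.53, adjusted 0.56). Without RAB3A 5 the r was 0.413 for Ifit1, 0.321 for Gbp2 and 0.401 for Cxcl9. Within elw titles it was 0.446, 0.340 and 0.468 in that order. Away from RAB3A 5 the relation was thus not particular to Cxcl9. With the microglia and macrophage mean, r was 0.075 for Cxcl9 (permutation p = 0.728, adjusted 0.748), 0.417 for Ifit1 (permutation p = 0.0433, adjusted 0.0616) and 0.453 for Gbp2 (permutation p = 0.0272, adjusted 0.0419), and without the 2 farthest tumours 0.064, 0.284 and 0.385. With the mean of 10 neuron markers, Gbp2 ran the other way by rank: r was -0.292 (permutation p = 0.168, adjusted 0.214) and rho -0.464 (permutation p = 0.0227, adjusted 0.0312), with r = -0.575 without RAB3A 3 and ZNF668 9, -0.245 within elw and -0.585 within mmr. For Ifit1 and Cxcl9 the neuron r was -0.154 (permutation p = 0.475, adjusted 0.533) and -0.191 (permutation p = 0.371, adjusted 0.429). The part of these cells in the levels was not tested.

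**Figure D4:**
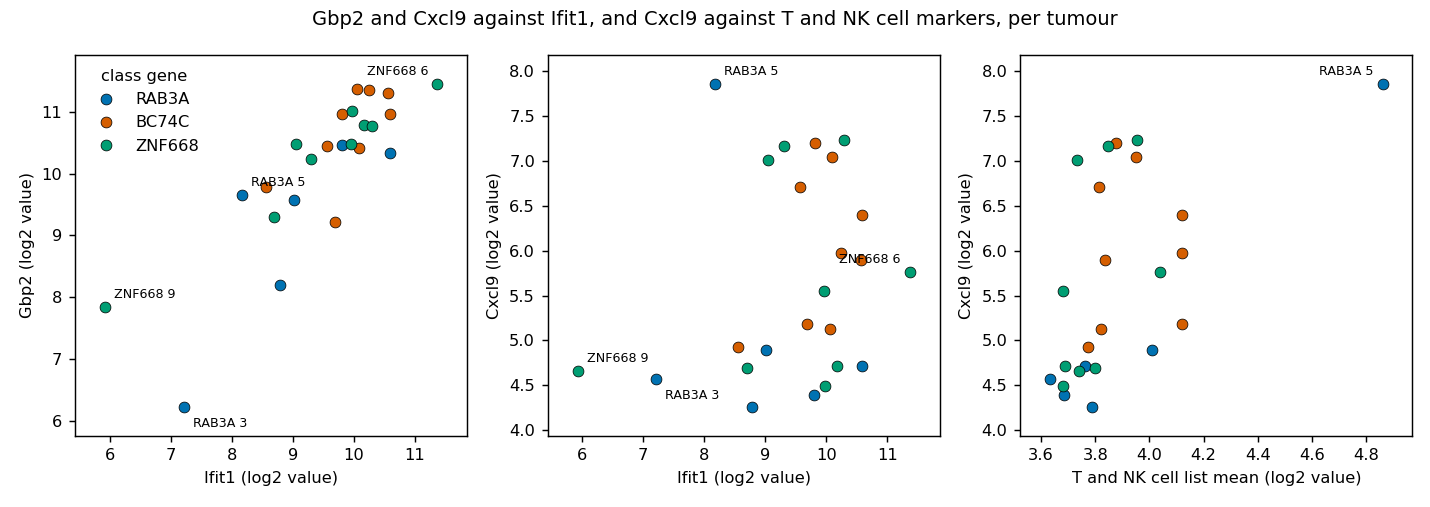
Log2 values per tumour, coloured by class gene: Gbp2 against Ifit1 (r = 0.836), Cxcl9 against Ifit1 (r = 0.201) and Cxcl9 against the mean of T and NK cell markers (r = 0.548). RAB3A 5 is the highest in Cxcl9 with a low Ifit1 of 8.17, and RAB3A 3 and ZNF668 9 are low in Ifit1 and Gbp2.

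The same 3 tumours lay near the ends of the range for most of the genes. ZNF668 6, labelled ependymoma, was in the highest 3 of 24 for 7 of the 8 genes, all but Cxcl9, with Ifit1 at 11.37 and Irf7 at 10.75. RAB3A 3, labelled TUMOR, and ZNF668 9, labelled UNKNOWN, were each in the lowest 3 for 7 of 8, with Ifit1 at 7.21 and 5.92. The exception was Cxcl9 in both, which was also low, at rank 4 of 24 from the lowest in RAB3A 3 and 5 in ZNF668 9. ZNF668 9 was also the tumour highest in endothelial and oligodendrocyte markers and lowest in astrocyte markers. Microglia and macrophage means were 9.62 in ZNF668 6, 8.08 in RAB3A 3 and 7.83 in ZNF668 9. The highest such mean, 10.11, was in RAB3A 4, whose Ifit1 was 9.02. The part of these cells in the values of these tumours was not tested. Without ZNF668 9 the ZNF668 mean of Ifit1 moved from 9.42 ± 1.53 (SD, n = 9) to 9.85 ± 0.84 (SD, n = 8), close to the BC74C mean of 9.91 ± 0.62 (SD, n = 9).

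Among interferon ligands, 9 of 12 listed genes had a probe set and only Ifnb1 passed the filter, with means of 3.67 in RAB3A, 3.97 in BC74C and 3.83 in ZNF668 tumours, close to the filter's 3.76. Ifng, the gamma ligand, averaged 3.28 and was below it. Receptors were measured throughout: of 5 genes, Ifngr2 differed by -0.49 for RAB3A minus BC74C (SE 0.20, limma adjusted p = 0.493), while Ifngr1 differed by 0.20 (SE 0.22, limma adjusted p = 0.819). Of the listed receptor, 11 signalling and 9 sensing genes tested, limma called 0 in this comparison, with 1, 0 and 1 lower at an unadjusted p under 0.05 and 0 higher. Of all genes 6.01% were lower and 2.19% higher at that threshold. The sensing gene was Ifih1, the cytosolic receptor for long double-stranded RNA, at -1.33 (SE 0.56, limma adjusted p = 0.52).

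Among other response genes, limma called 0 of 29 listed type I genes and 0 of 22 listed gamma genes in RAB3A minus BC74C, with some genes shared between lists and members. At an unadjusted p under 0.05, 10 of the 29 and 12 of the 22 were lower and 0 were higher, beside 6.01% and 2.19% of all genes. The type I genes were negative in 29 of 29 with a median of -0.98, and the gamma genes in 20 of 22 with a median of -0.95. Eif2ak2, the RNA-activated kinase that stops translation, differed by -1.29 (SE 0.47, limma adjusted p = 0.449), and Batf2, a factor of macrophage activation, by -0.97 (SE 0.33, limma adjusted p = 0.423). At the other end Samd9l differed by -0.45, Icam1, an adhesion molecule, by 0.12 and Irf8, a myeloid factor, by 0.31. Cxcl11, the remaining ligand of Cxcr3, differed by -1.34 (SE 0.60, limma adjusted p = 0.553), and Cxcr3 itself, with a mean of 3.61, was below the filter.

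In RAB3A minus ZNF668 the listed type I genes were negative in 29 of 29 with a median of -0.61, and the gamma genes in 19 of 22 with a median of -0.57. Under an unadjusted p of 0.05, 3 of the 29 and 2 of the 22 were lower, beside 6.34% of all genes. In BC74C minus ZNF668 the type I genes were positive in 29 of 29 with a median of 0.42 and 0 under an unadjusted p of 0.05. The gamma genes were positive in 21 of 22 with a median of 0.34. Gbp8 at 1.23 (SE 0.49, limma adjusted p = 0.505) and Serping1 at 0.78 (SE 0.34, limma adjusted p = 0.63) were the 2 under an unadjusted p of 0.05. This 2 of 22 is near the 6.88% of all genes in either direction. In HGG minus ependymoma the type I genes were positive in 17 of 29 with a median of 0.03, and the gamma genes in 17 of 22 with a median of 0.22. Limma called 0 genes of both lists in these comparisons, and in HGG minus ependymoma 0 also at an unadjusted p under 0.05, beside 1.73% of all genes.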

How the data were processed

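Total RNA of 24 tumours was extracted with Trizol and hybridised as biotin-labelled cRNA to Affymetrix arrays, per the labels' protocols. The deposited table gives log2 values for 45141 probe sets, already on a common scale as read from the values. Partek 6.6 was used, per the submitters' processing notes, and the background correction, normalization and summarisation are not given in the sources used here. Signal over background was not assessed.

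Control probe sets (104) were dropped. Of the others, 28898 had 1 symbol, 15588 had none and 551 had several. For 17097 genes the single-symbol probe set of highest mean was kept, and 13218 genes reached the filter of 3.76, the 30th percentile of probe set means. No single-symbol probe set named Isg15. The probe sets annotated to its pseudogene Gm9706 were not read as Isg15, so the planned type I side of the contrast, Ifit1 and Isg15, was run with Ifit1 alone.

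Class genes were compared in 1 limma 3.58.1 model (R 4.3.3, eBayes with intensity trend) of 24 tumours, and HGG with ependymoma in 15 tumours with class gene as covariate. Tests were two-sided and adjusted by Benjamini-Hochberg over 13218 genes, with a threshold of 0.05. The fit was tested on simulated data. Correlations used 100000 permutations. Named genes are the 9 listed, the 2 highest and 2 lowest by moderated t in an interferon list (chosen among these for the text), and the 5 most correlated with Ifit1, Gbp2 and Cxcl9. Ifng, Cxcr3 and the markers named for RAB3A 5 were chosen after their values were seen. The genes and lists were chosen with earlier results of these data known. Alternatives were other probe sets, scalings, filters, weights and subsets of tumours, and each tumour left out in turn. Promoter windows and gene coordinates are RefSeq's on GRCm38.p6. Coordinates were not tied to single probes. Figures used matplotlib 3.10.9 in Python 3.11.15.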

Additional observations from a re-analysis of the deposited data

Results flagged for a closer look

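Of 48 gene and group combinations with 4 to 10 tumours, 8 held a tumour far from its group by Dixon's criterion at 95%, which chance meets in about 1 in 20 groups. The genes vary together, so these are not separate events. In BC74C tumours, BC74C 4 was low in Ifit1 at 8.554, where the next was 9.567, and in Ifit3 at 8.473, where the next was 10.296. In ZNF668 tumours, ZNF668 9 was low in Ifit1 at 5.924 and in Ifit3 at 6.999, where the next values were 8.694 and 9.407. In RAB3A tumours, RAB3A 5 was high in Cxcl9 at 7.859, where the next was 4.89. Among tumours labelled TUMOR, RAB3A 3 was low in Gbp3 at 8.653 and in Cxcl10 at 5.319, where the next values were 10.219 and 9.069, and ZNF668 7 was high in Cxcl9 at 7.004, where the next was 4.89.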

How the results depend on the processing

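Limma called 0 of the 8 genes in each comparison and under each alternative that was run. Subtracting array medians or quantile normalization moved the median of all genes by under 0.1 and turned no direction among the 4 main comparisons. The counts at an unadjusted p, the contrasts of single pairs of genes and the fits without RAB3A 5 and ZNF668 9 together were added after seeing the data. No paired analysis was possible because the labels give nothing that pairs tumours of different class genes. Signal over background limits low genes such as Cxcl9, but was not assessed. Where a value moved, the cause was not tested.

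With only tumours labelled ependymoma, RAB3A minus BC74C had a median of -0.329, a type I minus gamma value of 1.256, 0 genes at an unadjusted p under 0.05, Ifit1 at 0.54 and Ifit3 at 0.78, and RAB3A minus ZNF668 had 0 such genes, Ifit1 at 0.074 and Ifit3 at 0.41. There BC74C minus ZNF668 gave Cxcl10 -0.53, Cxcl9 -0.045, Ifit1 -0.47, Ifit3 -0.38 and Irf7 -0.32. With only elw titles it gave Cxcl10 -0.33, Gbp2 -0.0698, Ifit1 -0.25, Ifit3 -0.22 and Irf7 -0.17, and HGG minus ependymoma gave Gbp2 -0.065, Irf1 -0.095 and Irf7 -0.13. In these titles RAB3A minus ZNF668 had 4 genes at an unadjusted p under 0.05, beside 11.4% of all genes. With array weights it had 3. The share of all genes was not counted with array weights, with only ependymoma labels or with only the class genes compared. Array weights gave Cxcl10 -0.028 for BC74C minus ZNF668. For HGG minus ependymoma they gave Cxcl10 -0.27, Cxcl9 -0.12, Gbp2 -0.037, Ifit1 -0.082, Ifit3 -0.034 and Irf7 -0.24. With the title prefix as a block the unadjusted count was 3 for RAB3A minus BC74C, beside 8.96% of all genes. For RAB3A minus ZNF668 it was 0, beside 9.52%, and HGG minus ependymoma gave Gbp2 -0.0035. With only the class genes compared in the fit, RAB3A minus ZNF668 had 0 such genes. Without RAB3A 5 and ZNF668 9 together it had 5, beside 14.4% of all genes, and BC74C minus ZNF668 gave Cxcl10 -0.24.

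Leaving out each tumour in turn, the unadjusted count ran from 1 to 6 for RAB3A minus BC74C and from 0 to 5 for RAB3A minus ZNF668. Among these fits the share of all genes was counted only without RAB3A 5. Signs turned for BC74C minus ZNF668 in Cxcl10 (-0.24 without ZNF668 9, up to 0.52) and for RAB3A minus ZNF668 in Ifit3 (-0.66 to 0.0199 without RAB3A 3). For HGG minus ependymoma they turned in Cxcl10 (-0.27 to 0.35), Gbp2 (-0.13 to 0.34), Gbp3 (-0.42 to 0.13), Ifit1 (-0.11 to 0.46), Ifit3 (-0.053 to 0.62) and Irf7 (-0.41 to 0.49).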
